A study of Mus musculus with 6 samples.

Results

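The proteins that fuse synaptic vesicles with the presynaptic membrane and retrieve them afterwards were followed at the transcript level in 2 populations of Atoh1-lineage cells of the mouse hindbrain. Members were the probe sets whose single gene symbol named a synaptotagmin, Doc2 protein, SNARE (Vamp, Stx, Snap23, Snap25, Snap29), syntaxin-binding protein, complexin, NSF or its adaptors Napa and Napb, Unc13, Rims, Bsn, Pclo, Erc1, Erc2, Rab3, Rph3a, Sv2, Syp, Sypl, Synpr, synapsin, dynamin, synaptojanin or Snap91. This naming rule found 267 of the 45101 probe sets on the array, for 106 of 18193 named genes. Of these genes, 92 with 239 probe sets belong to the release and retrieval machinery by function. The other 14 share only the letters of the rule (Rab30 to Rab39b, the mitochondrial dynamin Dnm1l and the outer-membrane protein Synj2bp) and are kept apart in what follows. A further 3 probe sets that named a member together with another gene were left out.

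The embryos were Swiss Webster mice carrying Atoh1-CreER, a tamoxifen-dependent recombinase driven by the regulatory sequence of the rhombic lip factor Atoh1, and the RCE reporter, which makes EGFP permanently once recombined. All dams received tamoxifen by gavage at 4 mg per 35 g. The E10.5-labelled group (3 arrays) was dosed at E10.5, counted in embryonic days, and the E13.5-labelled group (3 arrays) at E13.5. In both, the rhombomere 1 and isthmus region was dissected at E14.5, dissociated with papain and DNase, and EGFP-positive cells were sorted. The day of labelling and the time from labelling to collection therefore differ together between the groups. Only cells that expressed Atoh1 around the day of dosing, and their progeny, carry EGFP, and no untreated or EGFP-negative cells were among the 6 arrays. Neither separate litters nor the pooling of embryos is stated in the labels, and the p-values below therefore rest on a spread between samples that may be technical.

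A synaptic vesicle fuses when its SNARE protein Vamp2 zips together with the plasma-membrane SNAREs Stx1a and Snap25 under the guidance of Sec1/Munc18 proteins such as those of the Stxbp family. Unc13 and Rims proteins at the active zone prime the complex, complexins hold it, and a synaptotagmin that binds calcium triggers the last step. NSF with its adaptors then takes the spent SNARE complex apart, while dynamin, synaptojanin and the clathrin adaptor Snap91 retrieve the membrane. Many of these families also have members that serve traffic through endosomes and the Golgi in all cells. In the rhombic lip, cells that express Atoh1 early give rise to neurons of brainstem and cerebellar nuclei, and cells that express it later include the precursors of cerebellar granule cells, which still divide at this age.

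The arrays were Affymetrix Mouse Genome 430 2.0, with 1 MAS5 signal in arbitrary units per probe set, and their medians lay between 97.7 and 112 units. Atoh1 itself read 936, 397 and 738 units in E10.5-labelled cells, against 9733, 6819 and 9372 units in E13.5-labelled cells. Atoh1 expression also marked the cells, so this difference is not independent of the labelling, and its cause was not tested. Of 11 neuron markers 8 were higher in E10.5-labelled cells and none passed in the other direction (1 at an unadjusted p under 0.05, limma), and their summed signal was 103333 to 110309 units in E10.5-labelled arrays against 47891 to 55076 units in E13.5-labelled arrays. All 8 tested markers of dividing granule cell precursors were higher in E13.5-labelled cells (median log2 difference -3.27). Their summed signal was 4982 to 6989 units in E10.5-labelled arrays and 51578 to 53139 units in E13.5-labelled arrays. Markers of GABAergic and Purkinje cells summed to 2238 to 3549 units in E10.5-labelled arrays against 828 to 1133 units in E13.5-labelled arrays, and 3 of 5 tested (Gad1, Gad2 and Calb1) were higher in E10.5-labelled cells. Of the 10 tested glial markers, Fabp7, Aldh1l1, Aldoc, Olig1 and Olig2 were higher in E10.5-labelled cells and Slc1a3 and Pdgfra in E13.5-labelled cells, and of the 2 tested microglial markers Csf1r was higher in E10.5-labelled cells. The summed oligodendrocyte lineage markers were 3571 to 3944 units in E10.5-labelled arrays against 1535 to 2043 units in E13.5-labelled arrays. None of 5 tested endothelial and meningeal markers passed, nor at an unadjusted p under 0.05 (limma). The 4 blood markers lay under the array median in all 6 arrays. Xist was low (166 units) only in E10.5-labelled replicate 3 and the Y-linked Eif2s3y was low (14.1 units) only in E13.5-labelled replicate 3, and the other 4 arrays carried both transcripts. The 3′ probe set of the Actb control exceeded its 5′ probe set by a factor of 17.4, 19.4 and 26.2 in E10.5-labelled arrays against 16.1, 15.0 and 12.9 in E13.5-labelled arrays. For the Gapdh control the groups overlapped, at 10.6, 12.5 and 13.2 in E10.5-labelled arrays against 12.1, 9.47 and 11.1 in E13.5-labelled arrays. The part of these markers and of these controls in the differences of the release genes was not tested.

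Most of the release machinery that differed was higher in E10.5-labelled cells. A gene was read from its brightest probe set, and only probe sets brighter than the median of their array in 3 or more of the 6 arrays entered the test. Of 90 member genes tested, 37 were higher in E10.5-labelled cells, 5 were higher in E13.5-labelled cells and 48 did not pass (limma, Benjamini-Hochberg adjusted p under 0.05 over all tested probe sets). Of the members, 41.1% thus passed as higher in E10.5-labelled cells and 5.56% as higher in E13.5-labelled cells. Of all 11064 genes tested in this way 30.2% passed, 16.2% (1796 genes) as higher in E10.5-labelled cells and 14% (1544 genes) as higher in E13.5-labelled cells. The median log2 difference, E10.5-labelled minus E13.5-labelled, was 0.60 over the 90 member genes, -0.03 over all genes tested and -0.09 over all 23471 probe sets tested. Of the 37 genes, 33 were at least 2-fold and 19 at least 4-fold higher. Over the 78 tested genes of the release machinery by function, 34 were higher in E10.5-labelled cells and 4 in E13.5-labelled cells, with a median of 0.66. In a bulk sample, fewer cells of a type and less RNA per cell cannot be told apart.

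The groups separated array by array for most members. In 50 of the 90 genes every E10.5-labelled array lay above every E13.5-labelled array, which was the case for 26.0% of all tested genes. In 7 genes every E13.5-labelled array lay above every E10.5-labelled array, against 26.4% of all tested genes, and in 33 the groups overlapped. The 7 were the 5 that passed (Stxbp3, Stxbp4, Cplx2, Vamp3 and Rab36) and Vamp4 and Stx4a, which did not. In 27 of the 37 genes that were higher in E10.5-labelled cells, all 3 E13.5-labelled arrays still lay above their array median. Rab3b, Rims4 and Doc2b were under it in all 3. With every signal raised to at least its array's median, their log2 differences were 2.59, 1.99 and 3.18, against 4.46, 2.62 and 4.64 on the signals as deposited, and all 3 still passed.

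**Figure D1:**
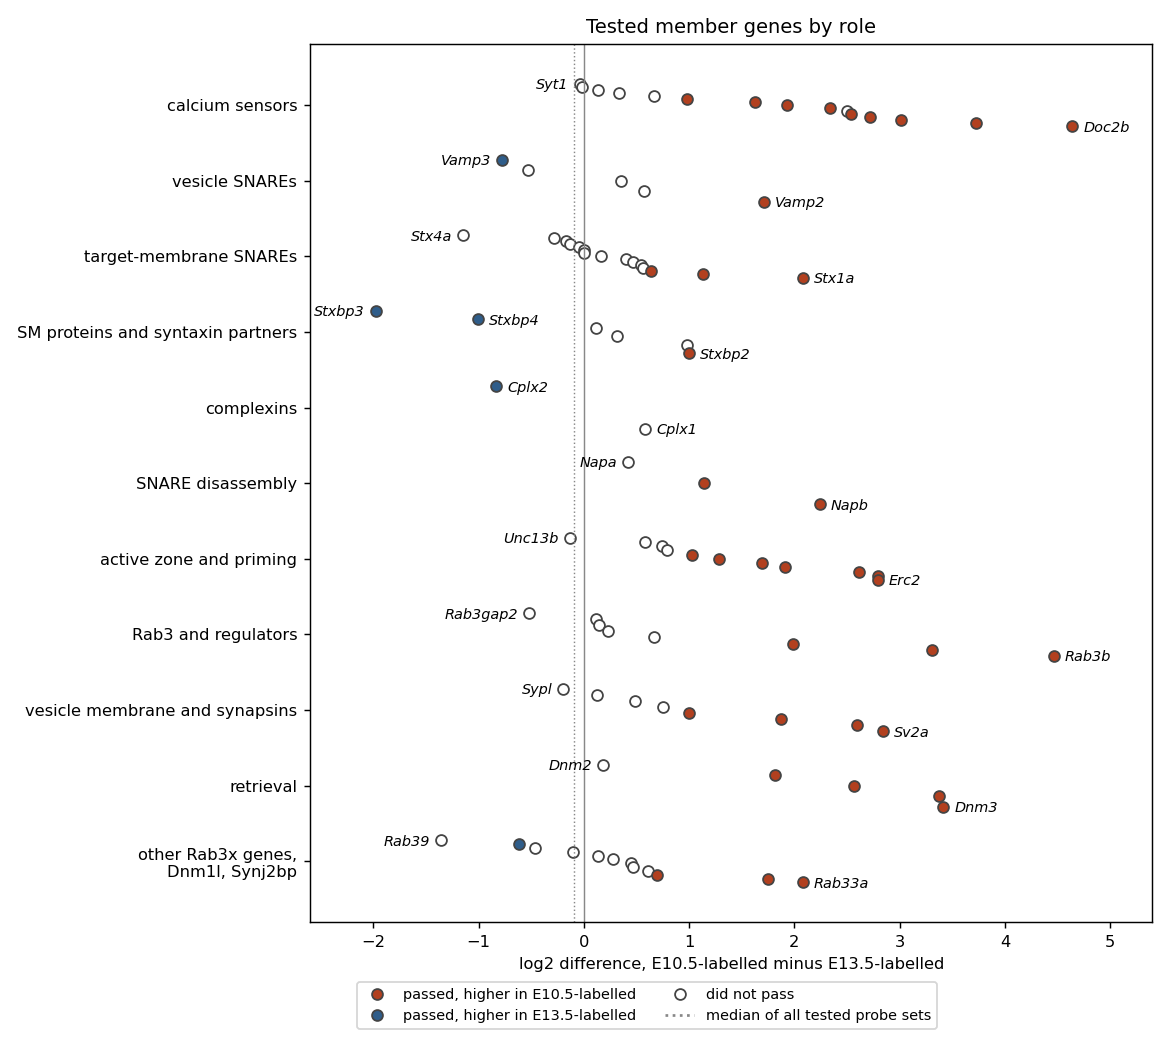
Log2 difference (E10.5-labelled minus E13.5-labelled) of each of the 90 tested member genes, in rows by role, with filled points for genes past the adjusted p of 0.05 and a dotted line at the median of all tested probe sets (-0.09). Calcium sensors (Doc2b), Rab3 genes (Rab3b) and retrieval genes (Dnm3) reach furthest to the right, while the 5 genes higher in E13.5-labelled cells lie among the vesicle SNAREs, syntaxin partners, complexins and genes that share only the letters.

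The plot of differences by role shows that the members did not move as a block, and the classes are taken in turn below. The map of single arrays shows the same 90 genes with their spread.

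**Figure D2:**
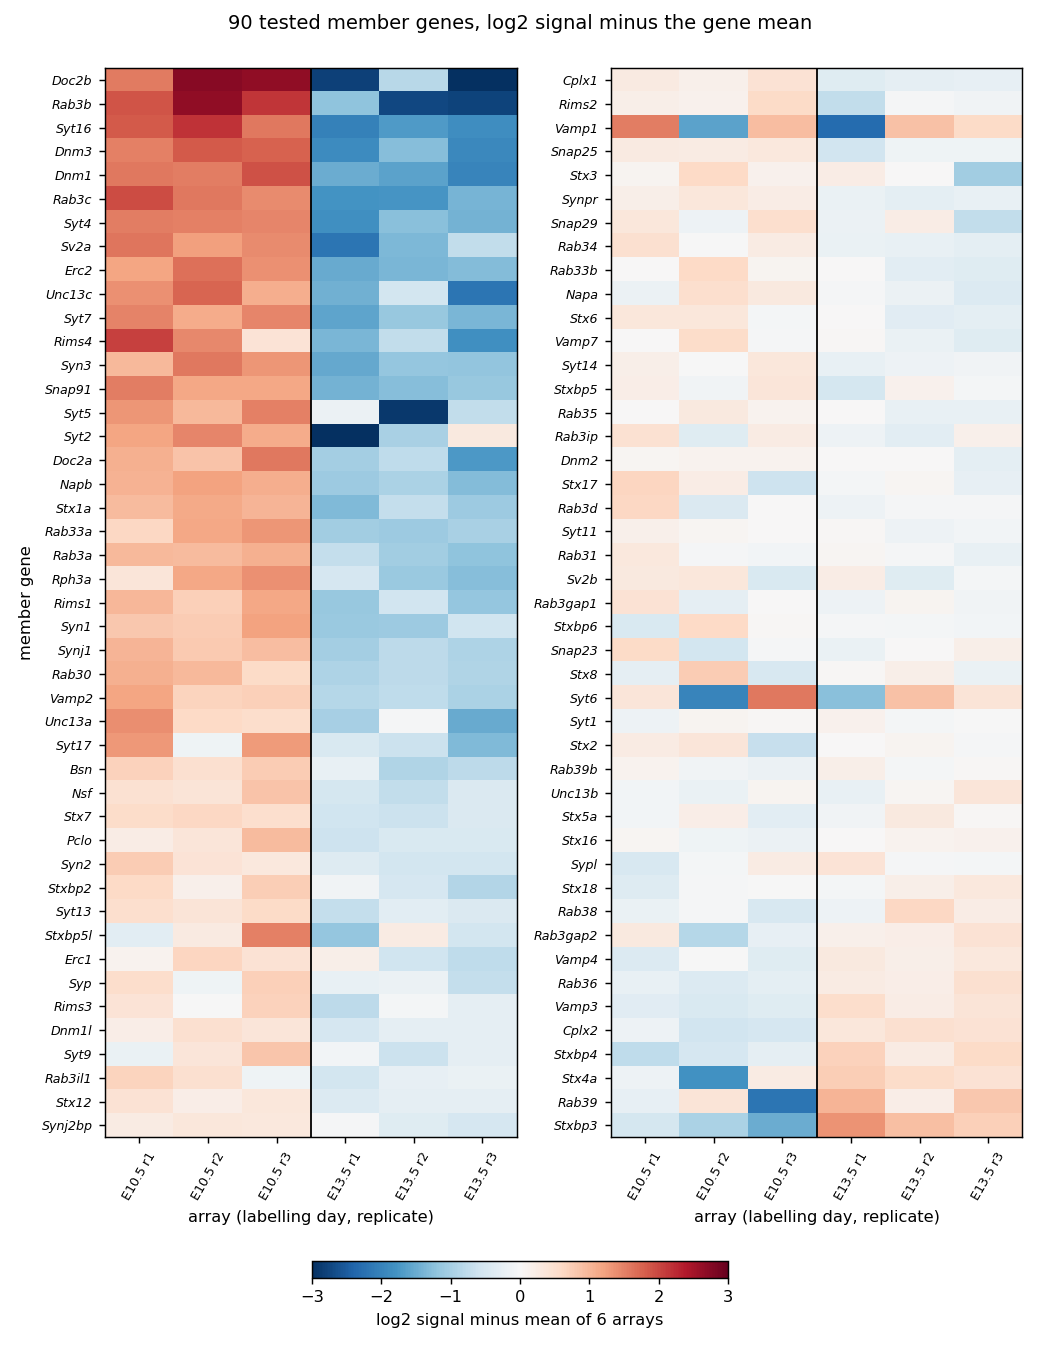
Log2 signal of the 90 tested member genes in each array minus the gene's mean over the 6 arrays, ordered from the largest positive difference (top left) to the largest negative one (bottom right), E10.5-labelled arrays left of the black line in each panel and colours clipped at ±3. The upper rows of the left panel split by group in every array, whereas Vamp1 and Syt6 in the right panel vary within both groups.

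The class of calcium sensors, which here held every synaptotagmin, Doc2 protein and Rph3a, was among those with the largest differences. It was set by name and includes forms with an altered calcium-binding site, such as Syt4 and Syt11. Of 15 tested genes 9 were higher in E10.5-labelled cells and none passed in the other direction (none at an unadjusted p under 0.05 either, limma), with a median log2 difference of 1.93. Syt1, the fast sensor of synchronous release, had 5501, 6453 and 6269 units on its brightest probe set in E10.5-labelled cells, against 6684, 5896 and 6139 units in E13.5-labelled cells. The groups overlapped and the difference of -0.04 ± 0.17 (SE) on the log2 scale did not pass (adjusted p = 0.885), although other probe sets of the gene did, as described below. Syt4, which lost part of its calcium-binding site and sits on secretory vesicles, read 3082, 3005 and 2918 units in E10.5-labelled cells and 297, 439.6 and 392 units in E13.5-labelled cells. The E10.5-labelled arrays were tightly grouped and all far above the others, a difference of 3.02 ± 0.21 or 8.09-fold (adjusted p = 0.00115). Syt16, a divergent synaptotagmin, had 5010.0, 6223 and 4150.2 units in E10.5-labelled cells against 342, 429 and 381 units in E13.5-labelled cells, 13.2-fold apart (3.72 ± 0.22, adjusted p = 0.00112). Doc2b, a soluble high-affinity sensor linked to spontaneous release, had the largest difference of all members. It read 549, 1249 and 1188 units in E10.5-labelled cells against 26.6, 105 and 18.8 units in E13.5-labelled cells (4.64 ± 0.70, 24.9-fold, adjusted p = 0.00624), and the spread within each group was wide.

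The remaining 6 genes of this class that were higher in E10.5-labelled cells, namely Syt7, Syt5, Doc2a, the Rab3 effector Rph3a, Syt17 and Syt13, differed by 0.98 to 2.71 on the log2 scale. Syt7, the slow sensor of asynchronous release, read 2632, 2032 and 2597 units in E10.5-labelled cells and 314, 429 and 365 units in E13.5-labelled cells, with no overlap (6.56-fold, adjusted p = 0.00131). Syt2, the other fast sensor and the one used at many hindbrain synapses, had 163, 198 and 154 units in E10.5-labelled cells against 8.60, 36.4 and 87.5 units in E13.5-labelled cells. All E13.5-labelled arrays were lower but scattered widely, and the difference of 2.50 ± 0.80 missed the threshold (adjusted p = 0.0651), passing without E13.5-labelled replicate 3 (adjusted p 0.0342) and under 3 other settings (adjusted p 0.0231 to 0.0476). Syt11, a relative of Syt4 with the same altered site, differed by 0.14 ± 0.16 with overlapping groups (adjusted p = 0.570). The calls of 3 genes of this class were lost in some of the fits that left out 1 array. Over all tested probe sets such fits gave 2942 to 5849 calls, against 6104 with all 6 arrays. Syt13 was lost without E13.5-labelled replicate 1 or 3 (adjusted p up to 0.0576). Syt5 was lost when any one E10.5-labelled array or E13.5-labelled replicate 3 was left out (up to 0.0946), and Syt17 when any one array except E10.5-labelled replicate 2 was left out (up to 0.145).

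Of 5 tested vesicle SNAREs Vamp2 was higher in E10.5-labelled cells, Vamp3 was higher in E13.5-labelled cells on its brightest probe set, and 3 did not pass (median difference 0.35). Vamp2 (synaptobrevin 2), the vesicle SNARE of most central synapses, read 1732, 1217 and 1269 units in E10.5-labelled cells against 423, 449.5 and 400.0 units in E13.5-labelled cells. No arrays overlapped, and the signal was 3.28-fold higher in E10.5-labelled cells (1.71 ± 0.21, adjusted p = 0.00321). Vamp3 (cellubrevin), which serves recycling endosomes in most cells, read 1481, 1364 and 1456 units in E10.5-labelled cells and 2717, 2192 and 2469 units in E13.5-labelled cells. It was 1.71-fold higher in E13.5-labelled cells (-0.77 ± 0.17, adjusted p = 0.0231), a call lost without E13.5-labelled replicate 1, 2 or 3 (adjusted p 0.0584 to 0.0935). The Vamp3 probe set is of a type that can match other transcripts, another of that type passed too (-0.82), and the tested one that is not of that type did not pass (-0.04, adjusted p = 0.905). The remaining tested Vamp3 probe set, also of that type, did not pass and lay on average higher in E10.5-labelled cells. With it, the log2 ratio of Vamp2 over Vamp3 differed by 1.24 ± 0.46, less than the 1.71 of Vamp2 alone. Vamp4 of the Golgi (-0.53 ± 0.19, adjusted p = 0.0898), Vamp7 of late endosomes (0.35 ± 0.24, adjusted p = 0.319) and Vamp1 (0.57 ± 1.13, adjusted p = 0.743) did not pass. Among the fits that left out 1 array, Vamp4 passed without E10.5-labelled replicate 2 (adjusted p 0.0450). Vamp1, the vesicle SNARE of many brainstem and spinal synapses, ranged from 28.9 to 255 units in E10.5-labelled cells and from 17.8 to 163 units in E13.5-labelled cells, with full overlap.

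Of 15 tested target-membrane SNAREs 3 were higher in E10.5-labelled cells, 12 did not pass and the median difference was 0.17. None passed in the other direction, nor at an unadjusted p under 0.05 (limma). Stx1a, the syntaxin of the synaptic SNARE complex, had 5721, 6491 and 6021 units in E10.5-labelled cells against 1168, 1805 and 1388 units in E13.5-labelled cells. Every E10.5-labelled array was at least 3 times any E13.5-labelled one, and the difference of 2.09 ± 0.22 (4.24-fold, adjusted p = 0.00230) was shared by a second probe set (1.76, adjusted p = 0.00962). The brightest Stx1a probe set is of the type described for Vamp3, and the second is not. Snap25, its partner at the plasma membrane, read 4700.4, 4579.5 and 4864 units in E10.5-labelled cells and 2599, 3563 and 3523 units in E13.5-labelled cells. The arrays did not overlap, but the difference of 0.56 ± 0.20 did not pass (adjusted p = 0.0847). On a second, dimmer Snap25 probe set the groups overlapped (0.14 ± 0.33, adjusted p = 0.776). The other passing genes were the endosomal syntaxins Stx7 (1.13 ± 0.17, 2.19-fold, adjusted p = 0.00586) and Stx12 (0.64 ± 0.17, 1.56-fold, adjusted p = 0.0379), and the call of Stx12 was lost when any one array except E10.5-labelled replicate 2 was left out (adjusted p 0.0670 to 0.130). The 9 tested syntaxins that did not pass, with Snap23 and Snap29, differed by -1.15 to 0.54. At the low end stood the general plasma-membrane syntaxin Stx4a, with 251, 79.5 and 330.0 units in E10.5-labelled cells against 464, 410.4 and 374 units in E13.5-labelled cells (adjusted p = 0.165).

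The syntaxin-binding proteins held the largest difference towards E13.5-labelled cells. Stxbp3 (Munc18c), the Sec1/Munc18 partner of the general syntaxin Stx4, read 341, 252 and 174 units in E10.5-labelled cells and 1240.2, 919 and 802 units in E13.5-labelled cells. All 3 E10.5-labelled arrays were lower, by 3.94-fold on average (-1.98 ± 0.31, adjusted p = 0.00721), and a second, dimmer probe set had the same sign without passing (-0.86, adjusted p = 0.213). Stxbp4 (Synip), another Stx4 partner, had 255, 305 and 358 units in E10.5-labelled cells against 689, 512 and 641 units in E13.5-labelled cells (-1.01 ± 0.22, 2.01-fold higher in E13.5-labelled cells, adjusted p = 0.0207). Its call was lost without E13.5-labelled replicate 1 or 3 (adjusted p 0.0806 and 0.0852). Stxbp2 (Munc18-2), known from secretion in blood cells, was higher in E10.5-labelled cells at low signals of 223, 166 and 248 units, against 136, 105 and 79.8 units in E13.5-labelled cells (1.00 ± 0.27, adjusted p = 0.0423), and did not pass when any one array except E10.5-labelled replicate 2 was left out (adjusted p 0.0556 to 0.137). This Stxbp2 probe set is of the type described for Vamp3, and no other of the gene was tested. Stxbp5 and Stxbp5l (tomosyns, which occupy syntaxin) and Stxbp6 did not pass on their brightest probe sets.

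Of the 2 tested complexins Cplx2 passed, in the direction of E13.5-labelled cells. Cplx2 read 2334, 1751 and 1828 units in E10.5-labelled cells against 3303, 3609 and 3522 units in E13.5-labelled cells, 1.78-fold higher in E13.5-labelled cells (-0.83 ± 0.19, adjusted p = 0.0242). Its groups did not overlap, but neither of its other tested probe sets passed (-0.40 and -0.42), and the call was lost without E10.5-labelled replicate 3 or any one E13.5-labelled array (adjusted p 0.0527 to 0.0950). Cplx1 had 2475, 2272 and 2767 units in E10.5-labelled cells and 1595, 1689 and 1714 units in E13.5-labelled cells, with every E10.5-labelled array above, and lay just outside the threshold (0.58 ± 0.17, adjusted p = 0.0508). On this brightest probe set it passed without E10.5-labelled replicate 2 (adjusted p 0.0484) and under 4 other settings of the fit (adjusted p 0.0164 to 0.0409). Its other tested probe sets overlapped between the groups and did not pass (0.46, adjusted p = 0.202, and -0.06, adjusted p = 0.891). Cplx3 and Cplx4, the complexins of retinal ribbon synapses, were not tested because they lay under the array median in all 6 arrays.

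**Figure D3:**
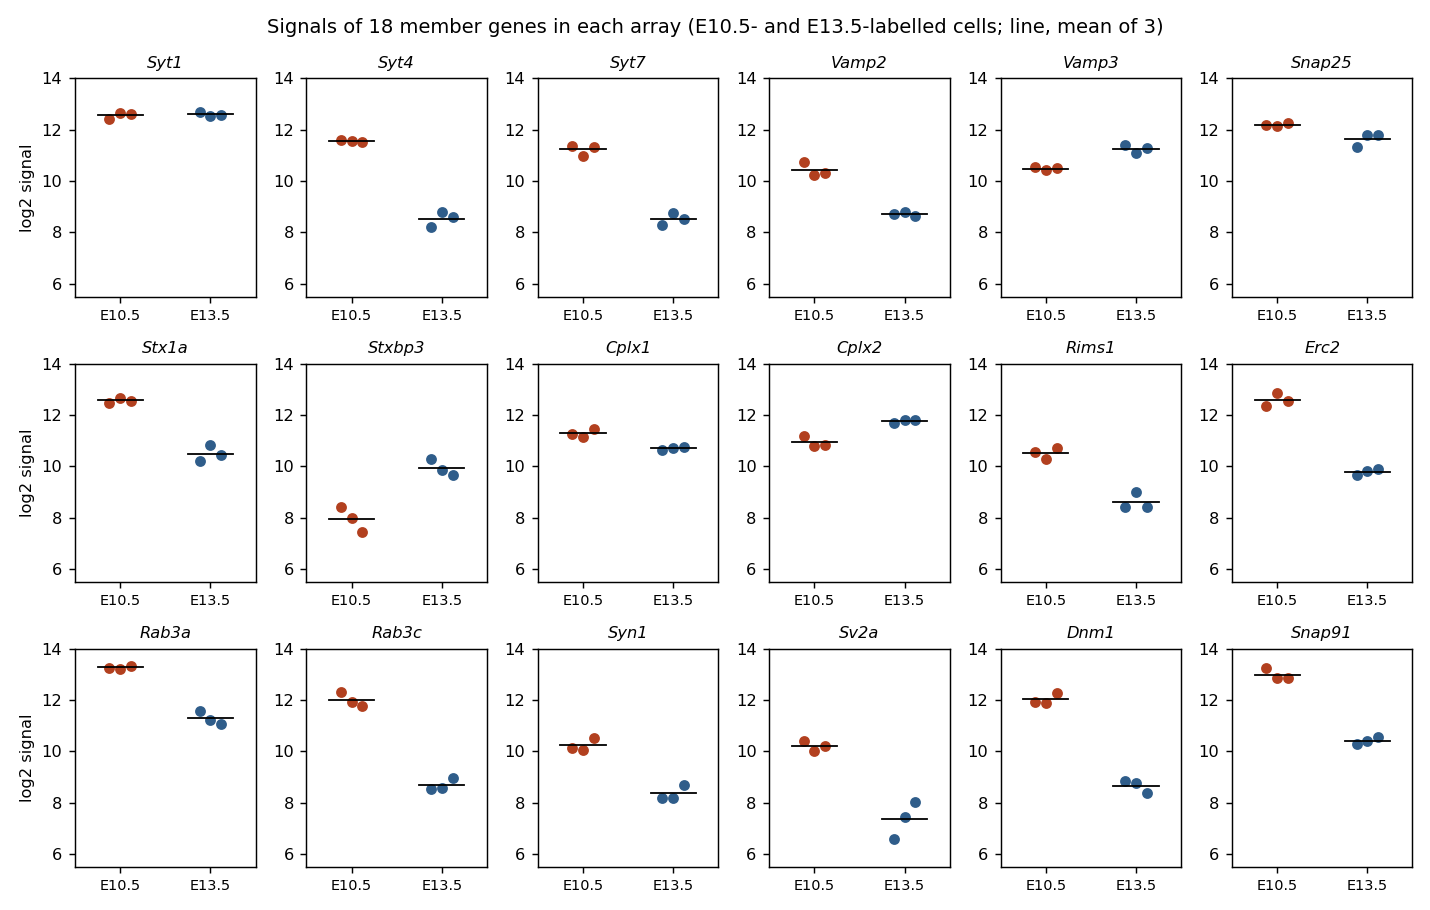
Log2 signal of 18 member genes in each array on a common axis, E10.5-labelled left of E13.5-labelled in each panel, with a line at the mean of 3. Syt1 overlaps between the groups, Vamp3, Stxbp3 and Cplx2 are higher in E13.5-labelled cells, and the other 14 genes lie higher in every E10.5-labelled array, of which Snap25 and Cplx1 did not pass.

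For the disassembly step, 2 of 3 genes were higher in E10.5-labelled cells. Napb (beta-SNAP), the brain form of the adaptor that loads NSF onto spent SNAREs, read 2129, 2376 and 2207 units in E10.5-labelled cells against 483, 529 and 416 units in E13.5-labelled cells (2.24 ± 0.18, 4.72-fold, adjusted p = 0.00139). All 5 tested Napb probe sets passed in that direction. Nsf, the ATPase itself, had 2295, 2191 and 3042 units in E10.5-labelled cells and 1157, 994 and 1241 units in E13.5-labelled cells (1.14 ± 0.21, adjusted p = 0.0119). Its 2 dimmer tested probe sets did not pass, and the call was lost without E13.5-labelled replicate 2 (adjusted p 0.0534). Napa, the general adaptor, did not pass (0.42 ± 0.24, adjusted p = 0.243).

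Active zone genes formed a second group with large differences. Of 11 tested genes 7 were higher in E10.5-labelled cells and none passed in the other direction (also none at an unadjusted p under 0.05, limma), with a median of 1.28. Erc2 (CAST), a scaffold that binds Rims and Bsn, read 5255, 7319 and 5986 units in E10.5-labelled cells against 815, 899 and 941 units in E13.5-labelled cells (2.79 ± 0.20, 6.94-fold, adjusted p = 0.00115). Rims1, which ties vesicles to calcium channels, had 1491, 1232 and 1681 units in E10.5-labelled cells and 341, 507 and 339 units in E13.5-labelled cells, well separated (1.91 ± 0.24, 3.75-fold, adjusted p = 0.00378). The giant scaffold Bsn read 859, 746 and 912 units in E10.5-labelled cells against 461, 284 and 309 units in E13.5-labelled cells (1.28 ± 0.24, adjusted p = 0.0129). Its relative Pclo had 3269, 3605 and 5361 units in E10.5-labelled cells against 1804, 2041 and 2039 units in E13.5-labelled cells (1.02 ± 0.24, adjusted p = 0.0257). In neither gene did the groups overlap, yet Bsn was lost without E13.5-labelled replicate 2 or 3 (adjusted p 0.0527 and 0.0606) and Pclo without any one E13.5-labelled array (adjusted p 0.0799 to 0.0938). A dimmer Pclo probe set passed in the same direction with a larger difference (3.05 ± 0.30, adjusted p = 0.00199), and another did not pass (2.58 ± 1.32, adjusted p = 0.200).

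The priming factor Unc13a, needed for most glutamate release, was dim, at 341, 196 and 185 units in E10.5-labelled cells against 64.8, 126 and 45.3 units in E13.5-labelled cells. The groups did not overlap (1.69 ± 0.44, adjusted p = 0.0364), but the call was lost when any one array except E13.5-labelled replicate 2 was left out (adjusted p 0.0555 to 0.115). Unc13c, the form best known from adult cerebellar granule cells, had 1004, 1299 and 826 units in E10.5-labelled cells and 143, 264 and 85.6 units in E13.5-labelled cells (2.79 ± 0.43, 6.93-fold, adjusted p = 0.00697). Unc13b, the more widely expressed form, overlapped between the groups (-0.14 ± 0.21, adjusted p = 0.675). Rims4, a short Rims protein, read 684, 450.5 and 220.4 units in E10.5-labelled cells against 64.1, 99.4 and 46.1 units in E13.5-labelled cells (2.62 ± 0.49, adjusted p = 0.0123), and missed the threshold without E13.5-labelled replicate 1 or 3 (adjusted p 0.0506 and 0.0503).

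Rab3 proteins are the small GTPases that bring vesicles to the active zone by binding Rims and Rph3a. Rab3a, the main brain form, read 9692, 9565 and 10378 units in E10.5-labelled cells against 3015, 2411 and 2134 units in E13.5-labelled cells (1.98 ± 0.20, 3.96-fold, adjusted p = 0.00203). This Rab3a probe set is of the type described for Vamp3, and a dimmer one that is not passed too (2.23 ± 0.26, adjusted p = 0.00291). Rab3c had 5048, 3897 and 3496 units in E10.5-labelled cells and 374, 381 and 495 units in E13.5-labelled cells (3.31 ± 0.23, 9.92-fold, adjusted p = 0.00115), and its 2 other tested, dim probe sets did not pass. Rab3b was 22.1-fold apart (4.46 ± 0.47, adjusted p = 0.00240), with 491, 831 and 587 units in E10.5-labelled cells against 57.5, 20.1 and 19.4 units in E13.5-labelled cells. In all 3 every E10.5-labelled array stood above every E13.5-labelled one. Rab3d, the form of exocrine and other secretory cells, did not pass on its brightest probe set (0.14 ± 0.29, adjusted p = 0.751). The regulators Rab3gap1, Rab3gap2, Rab3ip and Rab3il1, which switch Rab proteins off or on, differed by -0.52 to 0.66 and none passed (limma, 1 at an unadjusted p under 0.05). Among the fits that left out 1 array, Rab3il1 passed without E10.5-labelled replicate 3 (adjusted p 0.0370).

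Of 8 tested genes of the vesicle membrane and of the synapsins, which tether vesicles in the reserve pool, 4 were higher in E10.5-labelled cells. None passed in the other direction, nor at an unadjusted p under 0.05 (limma), and the median was 0.88. Syn1 read 1108, 1072 and 1454 units in E10.5-labelled cells against 289.6, 294 and 416 units in E13.5-labelled cells (1.87 ± 0.24, 3.65-fold, adjusted p = 0.00369). Syn3 had 2383, 3642 and 3069 units in E10.5-labelled cells against 418, 541 and 539 units in E13.5-labelled cells (2.59 ± 0.23, 6.02-fold, adjusted p = 0.00166). Syn2 differed less, by 1.00 ± 0.20 (adjusted p = 0.0145), and was lost without E13.5-labelled replicate 2 or 3 (adjusted p 0.0623 and 0.0679), although a second Syn2 probe set passed too. Sv2a, the vesicle glycoprotein that binds the drug levetiracetam, read 1339, 1044 and 1184 units in E10.5-labelled cells and 97.1, 174 and 264 units in E13.5-labelled cells, all separated (2.85 ± 0.38, 7.19-fold, adjusted p = 0.00433). Syp (synaptophysin), the common vesicle marker, had 587, 373 and 673 units in E10.5-labelled cells against 346, 357 and 249 units in E13.5-labelled cells. Its E10.5-labelled replicate 2 came close to the E13.5-labelled arrays, and the difference of 0.75 ± 0.29 did not pass (adjusted p = 0.107) except without that array (adjusted p 0.0356).

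Promoters of the members were searched for the left and right motif of the RE1 element, the site through which the repressor REST is known to hold many neuronal genes silent outside neurons. The windows ran from 250 bases before to 50 bases after each start in RefSeq (mouse build GRCm38.p6), were found for 85 of the 106 member genes (113 windows), and were searched on both strands for TTCAGCAC and GGACAGC. The left motif (TTCAGCAC) lay in 2 member windows (1.77%), against 1.17% of all 32851 windows of the table, and the right motif (GGACAGC) in 8 (7.08%), against 6.56% of all. Only the window of Unc13a held both, as did 0.122% of all windows. The windows of Syn1 and Unc13a are shown because they are the only member windows with the longer motif, and both genes were higher in E10.5-labelled cells. Capitals mark the motifs, as read on the gene's strand.
Syn1 promoter, chrX:20920869-20921168, minus strand: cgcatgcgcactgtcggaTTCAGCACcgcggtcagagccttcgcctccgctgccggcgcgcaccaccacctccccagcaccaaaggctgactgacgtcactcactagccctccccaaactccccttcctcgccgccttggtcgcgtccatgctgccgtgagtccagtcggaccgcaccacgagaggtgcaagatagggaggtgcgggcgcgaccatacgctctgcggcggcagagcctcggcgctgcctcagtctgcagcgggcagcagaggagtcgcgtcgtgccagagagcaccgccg
Unc13a promoter, chr8:71671708-71672007, minus strand: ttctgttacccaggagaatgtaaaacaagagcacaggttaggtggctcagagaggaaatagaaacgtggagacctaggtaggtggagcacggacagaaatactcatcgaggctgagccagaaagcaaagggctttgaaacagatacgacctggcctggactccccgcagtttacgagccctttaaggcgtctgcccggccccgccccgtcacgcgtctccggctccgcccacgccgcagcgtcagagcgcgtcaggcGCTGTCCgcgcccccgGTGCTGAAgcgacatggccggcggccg
In Syn1 the left motif began 232 bases before the start. In Unc13a both motifs lay on the opposite strand after the start, with 9 bases between them. These matches are a description of letters in a short window and say nothing of binding in these cells. CpG dinucleotides were more frequent in member windows than in all windows, at a median of 0.70 of the number their C and G content would give against 0.38.

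Retrieval was the class with the highest median, 2.57 over 5 tested genes, of which 4 were higher in E10.5-labelled cells and none in the other direction, also at an unadjusted p under 0.05 (limma). Dnm1, the neuronal dynamin that pinches off recycled vesicles, read 3911, 3796 and 4908 units in E10.5-labelled cells against 463, 430.4 and 331 units in E13.5-labelled cells. No arrays overlapped, and the groups were 10.3-fold apart (3.37 ± 0.22, adjusted p = 0.00113). Dnm3, another brain dynamin, had 6579, 8277 and 7928 units in E10.5-labelled cells and 622, 948 and 605 units in E13.5-labelled cells (3.41 ± 0.24, 10.7-fold, adjusted p = 0.00115). Snap91 (AP180), which sets the size of the retrieved vesicle, read 9629, 7426 and 7414 units in E10.5-labelled cells against 1237, 1367 and 1504 units in E13.5-labelled cells (2.57 ± 0.20, 5.93-fold, adjusted p = 0.00131). Synj1, the lipid phosphatase that helps shed the clathrin coat, had 8096, 6946 and 7589 units in E10.5-labelled cells against 1978, 2337 and 2116 units in E13.5-labelled cells (1.82 ± 0.17, 3.52-fold, adjusted p = 0.00193). All 3 tested probe sets of Dnm3 and of Synj1 and both of Snap91 passed in that direction. Dnm2, the dynamin of all cells, did not pass on its brightest probe set (0.18 ± 0.17, adjusted p = 0.482), and Synj2 was under the array median throughout.

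Of the 12 tested genes that share only the letters of the rule, 3 were higher in E10.5-labelled cells and 1 in E13.5-labelled cells, with a median of 0.36. Rab33a, a Rab protein of axonal vesicle traffic, read 3307, 4774 and 5394 units in E10.5-labelled cells against 1032, 998 and 1094 units in E13.5-labelled cells (2.08 ± 0.23, 4.23-fold, adjusted p = 0.00265). Rab30 of the Golgi differed by 1.75 ± 0.20 (adjusted p = 0.00282) and Dnm1l, which divides mitochondria, by 0.70 ± 0.18 (adjusted p = 0.0353). The call of Dnm1l was lost when any one array except E10.5-labelled replicate 1 was left out (adjusted p 0.0631 to 0.125). Rab36 was 1.53-fold higher in E13.5-labelled cells (-0.61 ± 0.18, adjusted p = 0.0498) and did not pass once any of the 6 arrays was left out (adjusted p 0.0659 to 0.182).

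Where a family holds a form enriched in neurons and one used in most cells, the ratio of both within each array was compared between the groups. Such a ratio does not depend on the scaling of the array, and only its difference between groups is read. Each gene was taken from its brightest probe set. In 8 of the 9 pairs set up in this way the ratio of the neuronal to the general form was higher in all 3 E10.5-labelled arrays. Dnm1 over Dnm2 differed most, by 3.19 ± 0.12 (SE) on the log2 scale, or 9.11-fold. Vamp2 over Vamp3 followed with 2.49 ± 0.18 (5.60-fold) and Erc2 over Erc1 with 2.01 ± 0.35. The place of Vamp2 over Vamp3 depended on the probe set. Over all tested probe sets its difference ran from 1.24 to 2.53, and that of Erc2 over Erc1 from 1.74 to 2.02. Rab3a over Rab3d (1.84), Unc13a over Unc13b (1.82), Napb over Napa (1.81), Stx1a over Stx3 (1.54) and Syp over Sypl (0.95) had differences of the same sign. Of these, Stx1a over Stx3 depended on the probe set: with the other tested Stx3 probe set its difference was -0.42 ± 0.44 and the groups overlapped. The sign of the other 9 ratio differences was the same with every combination of tested probe sets, a comparison chosen after the data were seen, and Unc13a over Unc13b had only 1 combination. Snap25 over Snap23 overlapped between the groups (0.56 ± 0.33). The fast over the slow calcium sensor, Syt1 over Syt7, was a further pair and had the opposite sign, -2.75 ± 0.25. Of the 10 pairs 9 reached an exact two-sided permutation p of 0.1, the smallest that 3 against 3 arrays can give (Benjamini-Hochberg adjusted p = 0.111), and Snap25 over Snap23 gave p = 0.2, so no pair could pass 0.05.

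**Figure D4:**
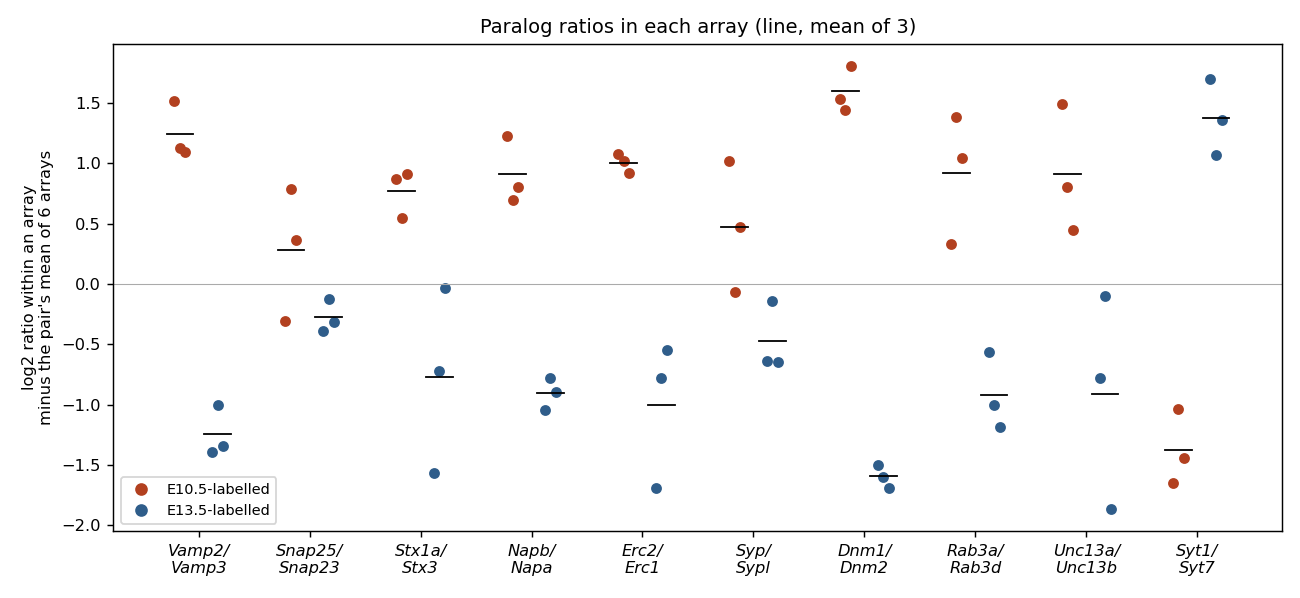
Log2 ratio of 2 related genes (brightest probe sets) within each array, minus the mean of that pair over the 6 arrays, E10.5-labelled points left of E13.5-labelled points and a line at each mean of 3. The groups are apart for every pair except Snap25 over Snap23, and Syt1 over Syt7 is the only pair that lies lower in E10.5-labelled arrays.

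Several members had probe sets that differed among themselves. More than 1 probe set was tested in 55 genes, and in none of these did 2 pass with opposite signs (limma, threshold 0.05). In 18 of the called genes another probe set passed the same way, and in 6 (Cplx2, Dnm1l, Nsf, Rab30, Rab3c and Stxbp3) none of the other tested ones did. In 11 further genes the brightest probe set did not pass but another did. Over single probe sets, 68 of 186 tested were higher in E10.5-labelled cells and 14 in E13.5-labelled cells, with a median of 0.45. Of all 23471 tested probe sets 26.0% passed, 3158 as higher in E10.5-labelled cells and 2946 (12.6%) as higher in E13.5-labelled cells, and in 22.1% and 24.8% the groups did not overlap in those directions. The share of members higher in E13.5-labelled cells was 7.53% by probe set and 5.56% by gene. Which transcript forms the single probe sets detect was not tested.

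Syt1 was the clearest case. While its brightest probe set overlapped between groups, a second one read 1281, 973 and 1038 units in E10.5-labelled cells against 3096, 3206 and 3344 units in E13.5-labelled cells, 2.95-fold higher in E13.5-labelled cells (-1.56 ± 0.18, adjusted p = 0.00309). Another, dim one passed in that direction too (-0.79 ± 0.18, adjusted p = 0.0221). The ratio of Syt1 over Syt7 given above used the brightest one. In Rab3d, 2 probe sets passed as higher in E13.5-labelled cells, the first with 125, 111 and 129 units in E10.5-labelled cells against 337, 303 and 419.7 units in E13.5-labelled cells (-1.52 ± 0.20, adjusted p = 0.00409). Single probe sets of Sv2b (-1.13 ± 0.27, adjusted p = 0.0287) and Syt11 (-1.15 ± 0.28, adjusted p = 0.0304) also passed towards E13.5-labelled cells. Towards E10.5-labelled cells the largest was in Stx3, with 891, 507 and 1106 units in E10.5-labelled cells against 129, 214 and 99.2 units in E13.5-labelled cells (2.50 ± 0.41, adjusted p = 0.00791). Rims3 (2.12 ± 0.29), Rims2 (1.25 ± 0.24), and probe sets of Stxbp5, Stxbp5l, Erc1 and Dnm2 (0.86 to 1.57) passed in that direction as well.

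**Figure D5:**
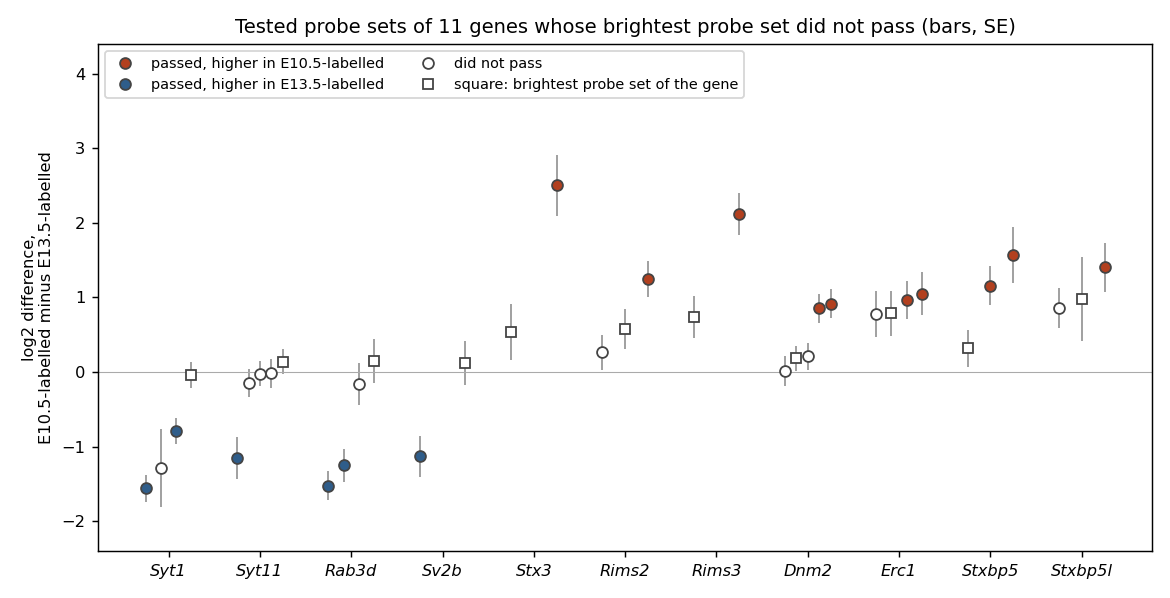
Log2 difference (E10.5-labelled minus E13.5-labelled) with its SE for every tested probe set of the 11 genes whose brightest probe set (square) did not pass while another did. Syt1, Syt11, Rab3d and Sv2b have other probe sets below 0 that passed, and the other 7 genes have probe sets above 0 that passed.

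Genes of the same pathway outside the naming rule were read from 4 lists. Of 68 tested genes in all, 38 were higher in E10.5-labelled cells and none in E13.5-labelled cells (3 at an unadjusted p under 0.05, limma). Over all tested genes 16.2% passed as higher in E10.5-labelled cells and 14% (1544 genes) as higher in E13.5-labelled cells. Transmitter loading had 6 of 7 genes higher in E10.5-labelled cells (median 1.03), among them the vesicular glutamate transporter Slc17a6 (VGLUT2), with 4684, 5225 and 5461 units in E10.5-labelled cells against 1292, 1366 and 1575 units in E13.5-labelled cells (1.86 ± 0.18, adjusted p = 0.00193). The other 5 were subunits of the vesicle proton pump or its accessory protein Atp6ap2. Slc17a7 (VGLUT1), the transporter of mature granule cells, lay under the array median in all 6 arrays. Of 19 release-site scaffolds and calcium channel subunits 9 were higher in E10.5-labelled cells (median 1.38). The channel subunit Cacna2d1, for example, had 4231, 5289 and 4804 units in E10.5-labelled cells and 1005, 828 and 930.5 units in E13.5-labelled cells (5.18-fold, adjusted p = 0.00131).

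Coat and endocytosis genes were higher in E10.5-labelled cells for 11 of 25 (median 0.70). Amph (amphiphysin), which recruits dynamin, read 4599.8, 4673 and 5067 units in E10.5-labelled cells against 969.7, 949.7 and 931 units in E13.5-labelled cells (5.03-fold, adjusted p = 0.00115). The neuronal uncoating factor Dnajc6 (auxilin) differed by 2.75 ± 0.27 (adjusted p = 0.00202), whereas Gak, its relative in all cells, did not pass (-0.20 ± 0.31, adjusted p = 0.671). Of 17 other vesicle proteins, chaperones and regulators 12 were higher in E10.5-labelled cells (median 0.99), such as the carrier protein Scamp1 (2.04 ± 0.17, adjusted p = 0.00159) and Cadps (4.01-fold, adjusted p = 0.00378), the priming factor of dense-core vesicles. Its relative Cadps2 did not pass and lay higher in all 3 E13.5-labelled arrays, with 4771, 5135 and 6875 units in E10.5-labelled cells against 7896, 8471 and 8602 units in E13.5-labelled cells (-0.59 ± 0.20, adjusted p = 0.0809).

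The representatives of 16 member genes failed the filter on low signals and were not tested, namely Syt3, Syt8, Syt10, Syt12, Doc2g, Unc13d, Cplx3, Cplx4, Vamp5, Vamp8, Stx11, Stx19, Sv2c, Synj2, Rab32 and Rab37. In Syt3, Syt12, Synj2 and Stx11 every E10.5-labelled array was above every E13.5-labelled one, and in Sv2c the reverse held, at signals that no more than 1 array brought above its median. Over all tested member probe sets the median SD between replicates was 0.298 in E10.5-labelled and 0.240 in E13.5-labelled arrays on the log2 scale. Over all tested probe sets the gap was wider, at 0.386 and 0.212, whereas the fit used a common variance for both groups.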

How the data were processed

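Sorted cells were measured on 6 arrays, 3 per group. Per the submitters' processing notes, the authors made the deposited intensities with MAS5, whose version is not given in the sources used here. In the values, each array is scaled to a mean of 500 without its lowest and highest 2%, so they carry no measure of the RNA in a cell. The log2 of each signal was fitted in limma 3.58.1 under R 4.3.3 (functions lmFit and eBayes, prior degrees of freedom 2.26), two-sided, E10.5-labelled minus E13.5-labelled, over all 23471 probe sets above their array's median (50th percentile) in at least 3 of 6 arrays, adjusted by Benjamini-Hochberg with 0.05 as the threshold. The 64 control probe sets were left out. Gene names came from the platform annotation, and a gene was represented by its brightest single-gene probe set. The fit was tested on simulated data. Folds were taken back from the difference in mean log2 signal. Same-numbered replicates did not deviate together (correlations -0.0291, -0.0747 and -0.00558), so no block was used.

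The members and gene lists were chosen with earlier results of these data known, so no list has a test. The genes named with full values were a list chosen for their role, whatever their values, and up to 3 of the largest passing differences per role and direction. Other genes and probe sets, some with full values (Stx4a, single probe sets of Syt1, Rab3d and Stx3, and the pathway genes outside the naming rule), were chosen after their values were seen. Alternatives were quantile normalization, centring, an offset of 5.97 units (10th percentile), a floor, other filters, variance models, representatives, thresholds, a replicate block and arrays left out. The number of arrays limits the precision.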

Additional observations from a re-analysis of the deposited data

How the results depend on the processing

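Quantile normalization, an offset of 5.97 units, a floor at the array median, an intensity trend with robust settings, 1 representative per gene and other representatives kept the member gene counts towards E10.5-labelled cells within 1.5 times of 37. Centring on the array median gave a median member difference of 0.54 and moved the median of all tested probe sets to -0.15. With no filter, 26 of the 37 and 1 of the 5 gene calls were kept, and 2 genes were higher in E13.5-labelled cells. Probe sets then numbered 45 and 4 in the directions of E10.5- and E13.5-labelled cells, and the median was 0.55. A filter at the 70th percentile left 74 member genes tested and kept 31 of the 37 and 4 of the 5 gene calls. With it, 9 probe sets were higher in E13.5-labelled cells. With the replicate number as a block, 29 of the 37 and 1 of the 5 gene calls were kept, so that 1 gene and 6 probe sets were higher in E13.5-labelled cells; the samples share only a number. At an adjusted p of 0.01, 24 genes and 43 probe sets were higher in E10.5-labelled cells and 1 gene and 3 probe sets in E13.5-labelled cells. Leaving out each array in turn gave 27 to 36 genes higher in E10.5-labelled cells, 1 to 5 higher in E13.5-labelled cells, 48 to 64 and 3 to 13 probe sets, and a median of 0.54 to 0.68. Of the 42 gene calls 26 held without any 1 array. Over all tested probe sets, calls fell from 6104 to 5673, 5849 and 5474 without E10.5-labelled replicate 1, 2 or 3. Without E13.5-labelled replicate 1, 2 or 3 they fell to 3107, 3342 and 2942, so losses there were not particular to the members. Without both replicates 3, the arrays with 1 sex-linked transcript low, 21 genes and 35 probe sets were higher in E10.5-labelled cells, the median was 0.52, and 0 genes and 0 probe sets passed as higher in E13.5-labelled cells (limma; 4 genes and 14 probe sets at an unadjusted p under 0.05). The uncalled differences of Syt1 (0.03 and 0.01) and Vamp1 (-0.06 and -0.45) changed sign without E10.5-labelled or E13.5-labelled replicate 1, within ranges of -0.09 to 0.03 and -0.45 to 1.52 over the 6 fits without 1 array. Among all tested probe sets, 51.7% of calls were higher in E10.5-labelled cells, against 47.4% after centring. The cause of these changes was not tested beyond the smaller number of arrays or genes. Ratio differences kept their sign with an offset, a floor and without any 1 array. With every combination of tested probe sets, added after the data were seen, Stx1a over Stx3 reached -0.74 and the other 9 kept their sign. Precision is limited by 3 arrays a group and, for genes near the array median, by signals close to the filter.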
